A study of Rattus norvegicus with 69 samples.

Results

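Sertoli genes that were highest in tubules of stages IV to VI were 23 genes, measured by 24 probe sets (Creg1 by 2 of them), of 14218 genes and 20832 probe sets that carried exactly 1 gene symbol. They were chosen by measured values. Group means of linear signal were set to at least 20, and a probe set was kept when its mean in isolated Sertoli cells was at least 100 and at least 4 times each of the 3 germ cell means. Its highest stage mean also had to be at least 100 and at least 2 times its lowest, and that highest mean had to fall at stage IV-V or VI. A2m and Cst9l met these limits and were left out by name, as were any sets of Cst12 and Ctsl. Of the 355 probe sets (323 genes) that met the Sertoli limits, 100 (93 genes) also met the limits on stages, and their peaks fell at every stage group, from 2 sets at stage I to 18 at stage VI and 18 at stage VIII.

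The study profiled 69 samples from Sprague Dawley rats on Affymetrix expression arrays. Seminiferous tubules made up 49 samples in 10 stage groups, sorted by how the tubules transmit light. Each of these pooled 25 segments from each of 2 rats, aged 55 to 60 days. There were 5 samples in every stage group except IV-V, which had 4 (replicates 2 to 5). The label of one group is unsettled: its samples are IX-XI by title, the name used here, but IX-XII by source name, and may also hold stage XII tubules. Isolated cells were Sertoli Cells (4 samples, about 85% pure), Pachytene Spermatocytes (4), Round Spermatid (4) and Spermatogonia Plus Early Spermatocytes (3), with the germ cells 85% to 95% pure per the labels. The last group came from rats aged 18 to 20 days and is called early germ cells below, and the other isolated cells came from rats of 55 to 60 days. For the 5 Whole Testis samples no age is stated in the sources used here. No treatment or mutation was given for any group. Values are MAS5 signals, a brightness per probe set on a linear scale with no unit, and no detection calls came with them, so it is not known which low signals exceed background. Errors are SD over samples. In bulk tubules and testis, fewer Sertoli cells and less of a transcript per Sertoli cell cannot be told apart.

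Sertoli cells are the somatic cells of the seminiferous epithelium. They nurse all generations of germ cells, seal the blood-testis barrier, take up the remains of spermatids and secrete tubule fluid, and each Sertoli cell passes through the stages of the cycle with the germ cells around it. In the stages before VII the barrier has not yet opened to the next generation of spermatocytes.

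The promoters of the 3 genes with the largest ratio of highest to lowest stage mean are shown first, since these genes set the outer range of the pattern. They encode doublecortin (Dcx), a microtubule-associated protein best known from migrating neurons, cathepsin K (Ctsk), a lysosomal cysteine protease that degrades collagen, and glypican 4 (Gpc4), a heparan sulfate proteoglycan of the cell surface. Sequences are from RefSeq, build GRCr8, and run 5′ to 3′ in the direction of the gene, with 250 bases before the start of the gene and 50 after it. The windows lie at chrX:112304112-112304411 (minus strand) for Dcx, chr2:185747298-185747597 (plus strand) for Ctsk and chrX:136676008-136676307 (minus strand) for Gpc4. Capitals mark matches to the motifs searched, in either direction: a TATA box in Dcx, GC boxes in Gpc4 and none in Ctsk.
Dcx: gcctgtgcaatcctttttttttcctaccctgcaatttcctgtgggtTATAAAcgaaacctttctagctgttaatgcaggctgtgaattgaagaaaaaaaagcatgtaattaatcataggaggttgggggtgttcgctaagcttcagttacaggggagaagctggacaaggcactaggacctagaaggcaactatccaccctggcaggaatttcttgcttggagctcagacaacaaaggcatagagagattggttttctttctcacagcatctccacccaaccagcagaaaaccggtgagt
Ctsk: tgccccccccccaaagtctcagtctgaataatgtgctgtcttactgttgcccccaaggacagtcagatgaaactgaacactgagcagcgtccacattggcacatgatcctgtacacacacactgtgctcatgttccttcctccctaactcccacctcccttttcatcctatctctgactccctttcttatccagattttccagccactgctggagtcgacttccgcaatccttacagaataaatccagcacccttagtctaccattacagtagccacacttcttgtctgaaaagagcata
Gpc4: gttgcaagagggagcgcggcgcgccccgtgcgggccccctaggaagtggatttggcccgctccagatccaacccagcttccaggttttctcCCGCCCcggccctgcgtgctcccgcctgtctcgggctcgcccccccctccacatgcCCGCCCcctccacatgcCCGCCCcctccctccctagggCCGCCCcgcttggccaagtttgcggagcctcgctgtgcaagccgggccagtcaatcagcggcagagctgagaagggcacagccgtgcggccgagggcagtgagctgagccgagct
The match in Dcx began 204 bases before the start of the gene, and the 4 in Gpc4 began 159, 103, 86 and 65 bases before it, all on the other strand.

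Promoter entries were found for 21 of the 23 genes, all but Aldh2 and Crym. The GC box GGGCGG was in 12 of the 21 windows (57.1%), against 33.1% of all 33469 promoters of the table, and the median GC content was 61.0% against 51.7%. Motifs and GC content were not compared with promoters of array genes or Sertoli-enriched genes alone, so no excess particular to the members is read from them. The GATA motif AGATAA was in 3 (14.3%, Creg1, Myo7a and Slc39a8) against 11.6%, and the androgen receptor motif AGAACA in 3 (14.3%, Creg1, Myo7a and Nxf7) against 20.7%. The ETS motif CCGGAA was in 3 (14.3%, Abhd6, Igsf1 and Slc11a2) against 5004 of the 33469. The E-box CACGTG was in 2 (9.52%, Aqp8 and Nxf7) against 6.42%, and the TATA motif TATAAA in 2 (9.52%, Dcx and Slc39a8) against 14.2%. The cyclic AMP response element TGACGTCA, the AP-1 motif TGACTCA, the NR5A1 motif CAAGGTCA and the SOX motif AACAAT were in 0 of 21, against 1.83%, 4.63%, 1.52% and 11.7% of all promoters. Both strands were searched, no match of one motif overlapped another in the 3 windows shown, and a match describes letters in a window, not a bound site. Of the 21 genes, 4 (19.0%) lay on chromosome X (Dcx, Gpc4, Igsf1 and Nxf7), against 17 of 270 Sertoli-enriched genes with a promoter entry (6.30%) and 389 of 11734 genes of the array (3.32%).

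The stage means that chose the genes are given as a description. The peak was at VI in 17 probe sets and at IV-V in 7, and the lowest mean was at IX-XI, XII or XIII-XIV in 15. The ratio of the highest to the lowest mean, both set to at least 20, ran from 2.09 (Slc11a2) to 12.7 (Dcx) with a median of 3.00. Samples of the peak stage and of the lowest stage overlapped in 0 of 24. The same separation held in 53.0% of all probe sets with 1 symbol and in 99.0% of the 100 that met the Sertoli and stage limits, so the choice of members nearly fixes it. Samples of IV-V and VI overlapped in 19 of 24, so for most members these 2 groups did not separate. They separated in the other 5, beside 6.85% of all probe sets. Outside IV-V and VI, the highest stage mean was at VIIa.b in 13, II-III in 9, VIIc.d in 1 (Aldh2) and XII in 1 (Mtarc2). In some members, such as Ctsk and Aldh2, that mean was above the mean of IV-V. The genes therefore differed in the shoulder of the peak: in some the signal was already high at II-III and low by VIIa.b, and in others it stayed high through VIIa.b.

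**Figure D1:**
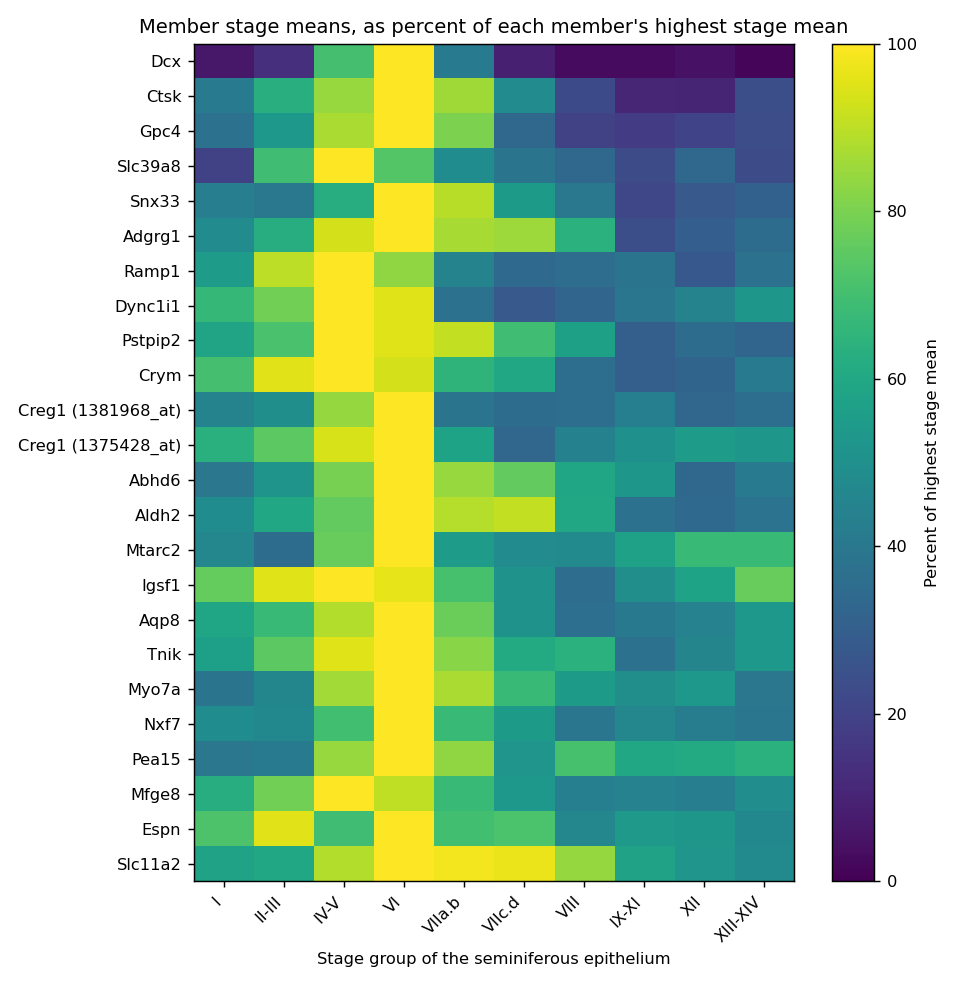
Stage means of each member as percent of its own highest stage mean (columns, 10 stage groups in the order of the cycle; rows, 24 probe sets in the order of their ratio of highest to lowest mean; colour, percent). The brightest cells of all 24 lie at IV-V or VI, and Dcx is the only one under 15% at II-III and under 10% at VIIc.d (13.6% and 8.63%).

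The gene with the narrowest peak was Dcx. Its signal was 178, 187, 207 and 147 in the 4 samples of IV-V and 191, 322, 312, 214 and 233 in the 5 of VI, a mean of 254 ± 59.3 (n = 5). At VIIa.b the samples read 91.8, 125, 110, 90.2 and 99.9, and at VIIc.d they read 27.8, 37.9, 32.7, 6.15 and 5.27. From VIII to XIII-XIV every stage mean was below the value of 20 used as the floor, the lowest being 4.47 ± 2.84 (n = 5) at XIII-XIV. The samples of IV-V and VI lay above those of every other stage, while low values such as those after VIIc.d have no reliable order. A second Dcx probe set read at most 7.19 as a stage mean and 4.18 ± 3.99 (n = 4) in Sertoli Cells, so only 1 of the 2 probe sets carried a signal.

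Among members that act in the lysosome or outside the cell, Ctsk had the next largest ratio. It read 447, 409, 438 and 488 at IV-V and 457, 519, 625, 586 and 450 at VI. At its lowest stage, XII, the samples were 56.5, 48.3, 70.6, 68.0 and 26.4. Ctsk had a broader peak than Dcx, with 331 ± 33.1 (n = 5) at II-III and 451 ± 41.8 (n = 5) at VIIa.b, and it was as low at IX-XI (55.9 ± 21.8, n = 5) as at XII (54.0 ± 17.9, n = 5). Gpc4 had a similar shape. It read 562, 611, 611 and 529 at IV-V and 588, 806, 759, 703 and 448 at VI, and 130, 104, 135, 126 and 97.8 at IX-XI, its lowest stage. Between VIIa.b (532 ± 62.2, n = 5) and VIIc.d (223 ± 71.8, n = 5) the Gpc4 samples did not overlap.

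Creg1, a secreted glycoprotein that also resides in lysosomes, was measured by 2 probe sets that both peaked at VI. The brighter set read 546, 511, 538 and 511 at IV-V and 660, 655, 584, 568 and 663 at VI, so that the 2 stages did not overlap. It read 189, 198, 183, 228 and 229 at XII, its lowest stage. Unlike Ctsk and Gpc4 it was back to 241 ± 23.9 (n = 5) at VIIa.b, 38.5% of its peak. The dimmer set had 178 ± 18.4 (n = 5) at VI and 59.1 ± 21.5 (n = 5) at VIIc.d. At VIIc.d replicates 2 and 3 read 33.6 and 37.7, and the other samples read 72.0 to 78.3. Mfge8, a secreted protein that links phosphatidylserine on dying cells to integrins of a phagocyte, peaked at IV-V with 455 ± 22.8 (n = 4) and was lowest at XII with 194 ± 24.8 (n = 5).

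Transporters and channels made up a further group. Aqp8, a water channel, read 1187, 1136, 1093 and 1171 at IV-V and 1044, 1520, 1358, 1180 and 1374 at VI, and 428, 495, 479, 494 and 477 at VIII, its lowest stage. Every sample of IV-V and VI was therefore above every sample of VIII. Slc39a8, a zinc and manganese importer, peaked earlier. It read 111, 122, 119 and 113 at IV-V and 96.6, 91.7, 62.6, 92.8 and 80.9 at VI, with no overlap between them, and 57.4, 78.6, 55.6, 73.9 and 138 at II-III, where the last sample was higher than any of IV-V. Its lowest stage was I, where the samples read 32.2, 6.39, 26.0, 28.6 and 19.9, so its largest step between neighbouring groups was from I to II-III. Slc11a2, an iron transporter, had the widest peak of all members, at 201 ± 41.4 (n = 5) at VI, 198 ± 32.6 (n = 5) at VIIa.b and 195 ± 20.3 (n = 5) at VIIc.d, with its lowest mean at XIII-XIV (96.5 ± 14.1, n = 5). A second Slc11a2 probe set behaved otherwise, with its peak at VIIa.b (70.5 ± 10.9, n = 5) and a Sertoli mean only 1.87 times that of early germ cells.

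The receptors split by shoulder. Ramp1, the accessory protein that makes the calcitonin receptor-like receptor bind calcitonin gene-related peptide, read 369, 375, 392 and 360 at IV-V and 305, 335, 324, 309 and 288 at VI, with no overlap between the 2 stages. At II-III it read 304, 358, 311, 361 and 349, and at its lowest stage, XII, it read 91.3, 89.7, 119, 112 and 103. Ramp1 was thus an early member, at 90.0% of its peak at II-III and 44.6% at VIIa.b. Adgrg1, an adhesion receptor coupled to G proteins, was a late one. It read 413, 390, 291 and 340 at IV-V and 410, 321, 337, 426 and 419 at VI, and still 327 ± 13.5 (n = 5) at VIIc.d. At IX-XI, its lowest stage, the samples were 99.5, 94.3, 67.8, 99.9 and 98.6, all far below the 244 ± 23.9 (n = 5) of VIII. Igsf1, a membrane protein with immunoglobulin domains known from the control of thyroid hormone by the pituitary, peaked at IV-V with 518 ± 28.9 (n = 4) and was lowest at VIII with 185 ± 17.8 (n = 5). A second Igsf1 probe set peaked at VI, at 217 ± 19.2 (n = 5), with a ratio of 1.79 that kept it out.

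Genes of the cytoskeleton and of membrane traffic came next. Myo7a, an unconventional myosin that moves along actin and is also needed in hair cells and retina, read 477, 500, 413 and 460 at IV-V and 372, 646, 563, 561 and 543 at VI. Its lowest stage was I, where it read 185, 245, 216, 196 and 193. Samples of II-III (247 ± 55.9, n = 5) and IV-V (463 ± 37.0, n = 4) did not overlap, and the first sample of VI was lower than every sample of IV-V. That sample was replicate 1, which IV-V lacks and which was the lowest Myo7a sample in every stage group that has it. Dync1i1, an intermediate chain of cytoplasmic dynein, read 119, 114, 136 and 133 at IV-V and 119, 153, 111, 134 and 79.1 at VI. It then read 38.4, 48.6, 61.5, 32.6 and 52.8 at VIIa.b and 27.2, 27.8, 64.7, 36.1 and 19.7 at VIIc.d, its lowest stage. Of all members Dync1i1 kept the smallest share of its peak at VIIa.b, 37.3%. Snx33, a sorting nexin of endocytosis, read 94.1, 68.4, 76.1 and 70.4 at IV-V and 76.9, 134, 101, 168 and 140 at VI, against 16.8, 10.7, 25.5, 35.2 and 42.7 at IX-XI. It was the member with the largest step between the 2 peak groups, a ratio of VI to IV-V of 1.60, yet its samples at the 2 stages overlapped. Only replicate 1 of VI (76.9), a number that IV-V lacks, fell within the range of IV-V.

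Espn, which bundles actin filaments at the ectoplasmic specialization, peaked at VI with 122 ± 32.8 (n = 5) and was lowest at VIII with 56.3 ± 26.9 (n = 5). Its stage pattern was the least clear of all, since its mean was 117 ± 62.1 (n = 5) at II-III. Replicate 1 was the highest Espn sample at I, II-III, VI, VIIa.b, VIII and IX-XI, with 226 at II-III and 176 at both I and VIIa.b. Pstpip2, an adaptor that binds membranes and actin, was at 101 ± 13.1 (n = 4) at IV-V, just above the limit of 100 on the peak, and at 30.5 ± 16.0 (n = 5) at IX-XI. Tnik, a kinase of the Wnt and actin pathways, ran from 162 ± 13.4 (n = 5) at VI to 60.9 ± 15.8 (n = 5) at IX-XI. Of its 3 other probe sets, 1 peaked at VI, 1 at IV-V and 1, which read at most 38.4 as a stage mean, at VIII. Pea15, a small adaptor that holds ERK in the cytoplasm, ran from 124 ± 13.7 (n = 5) at VI to 49.3 ± 17.0 (n = 5) at I, and its second probe set also peaked at VI, with a ratio of 1.60.

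The remaining members are enzymes, binding proteins and an RNA export factor. Aldh2, the mitochondrial aldehyde dehydrogenase that oxidises acetaldehyde, was at 448 ± 95.4 (n = 5) at VI and 407 ± 109 (n = 5) at VIIc.d, and 154 ± 38.3 (n = 5) at XII, its lowest stage. Abhd6, a hydrolase that breaks down an endocannabinoid lipid, ran from 152 ± 9.04 (n = 5) at VI to 51.1 ± 15.2 (n = 5) at XII. Its second probe set read at most 10.8 as a stage mean, at I, and 44.5 ± 9.41 (n = 4) in Sertoli Cells. Mtarc2, a molybdenum enzyme of the mitochondrial outer membrane, was the one member with its lowest mean at II-III, 83.4 ± 22.2 (n = 5), next to means of 180 ± 20.9 (n = 4) at IV-V and 235 ± 42.6 (n = 5) at VI. Crym, which binds thyroid hormone in the cytoplasm, was already at 230 ± 20.8 (n = 5) at II-III, against 241 ± 17.2 (n = 4) at IV-V and 73.2 ± 21.2 (n = 5) at IX-XI. Nxf7, of the nuclear RNA export factor family, was at 219 ± 40.2 (n = 5) at VI, above every sample of IV-V, and at 85.7 ± 13.5 (n = 5) at XIII-XIV.

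**Figure D2:**
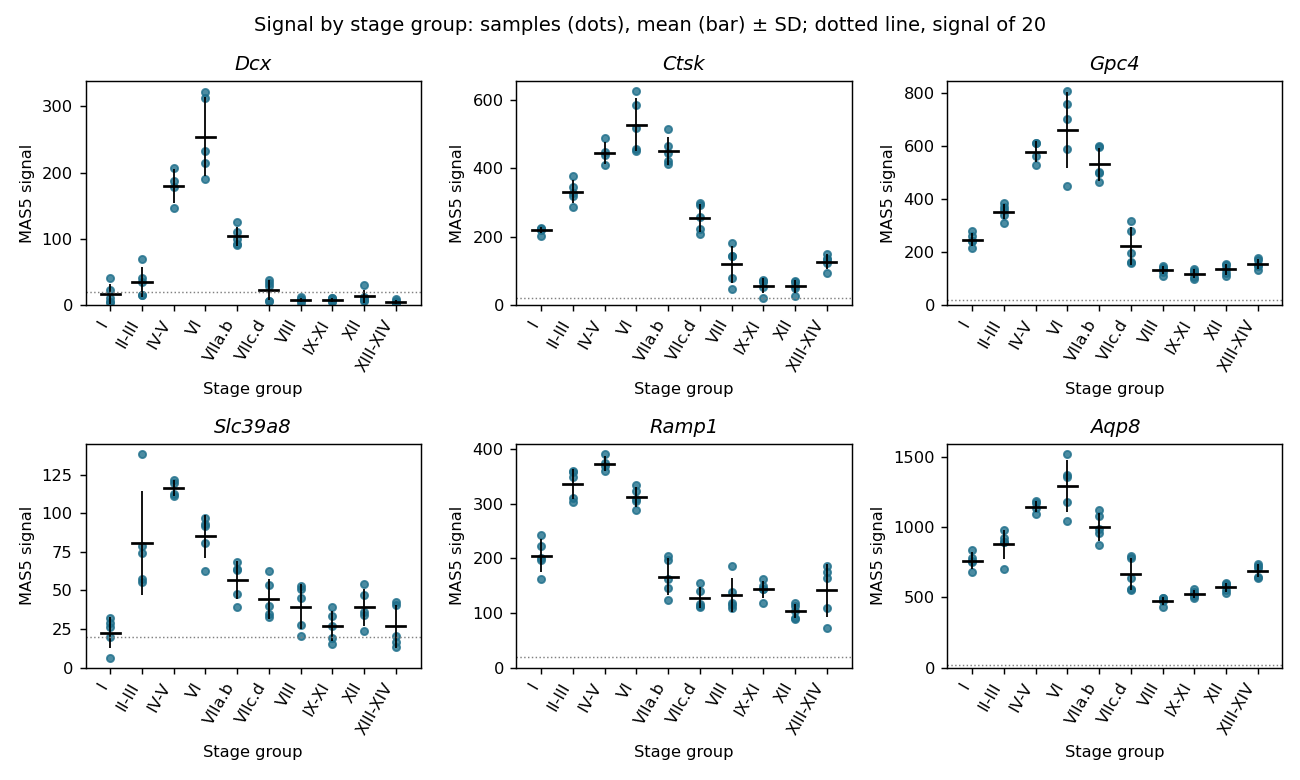
Signal of 6 members in every tubule sample (dots) by stage group, with group means (bars) ± SD (vertical axes, MAS5 signal; dotted line, signal of 20). Dcx, Ctsk, Gpc4 and Aqp8 are highest at VI (254, 527, 661 and 1295) and Slc39a8 and Ramp1 at IV-V (116 and 374).

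As a description, the members' median stage mean, as percent of each one's own mean over the 10 stages, was 84.5% at I, 110% at II-III, 146% at IV-V and 159% at VI. It was 124% at VIIa.b and 87.8% at VIIc.d and lay between 67.7% and 71.4% from VIII to XIII-XIV. The 46 Sertoli-enriched probe sets that varied less than 2-fold over the stages and were at least 100 at their peak had medians between 93.3% and 109% over the same stages, and 10556 probe sets of all kinds with a stage mean of at least 100 had medians between 95.1% and 101%. Of 16 measured Sertoli markers (such as Wt1, Gata4, Clu and Cldn11), the summed signal was 4988 ± 90.9 (n = 4) at IV-V and 5129 ± 198 (n = 5) at VI. Over all stages it ran from 4831 ± 248 (n = 5) at XIII-XIV to 5815 ± 337 (n = 5) at IX-XI. Clu alone made up 2728 of the sum at IV-V, and without it the other 15 ran from 2213 ± 44.2 (n = 5) at VI to 2656 ± 68.1 (n = 5) at VIII. Neither sum was highest at the members' peak, although 4 of the 16 markers taken singly were highest at IV-V or VI: Dmrt1 (129), Nr5a1 (97.2) and Dhh (85.5) at IV-V, and Espn, itself a member, at VI. Sums of 9 Leydig markers stayed between 310 and 369 as stage means. Of 9 macrophage and blood markers, Aif1 alone ran from 274 at I to 3075 at IX-XI, and it was also at 1843 in Round Spermatid. The other 8 together stayed between 285 ± 40.6 (n = 5) at VIIc.d and 450 ± 38.2 (n = 5) at IX-XI, with 404 ± 29.4 (n = 4) at IV-V and 422 ± 44.0 (n = 5) at VI.

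**Figure D3:**
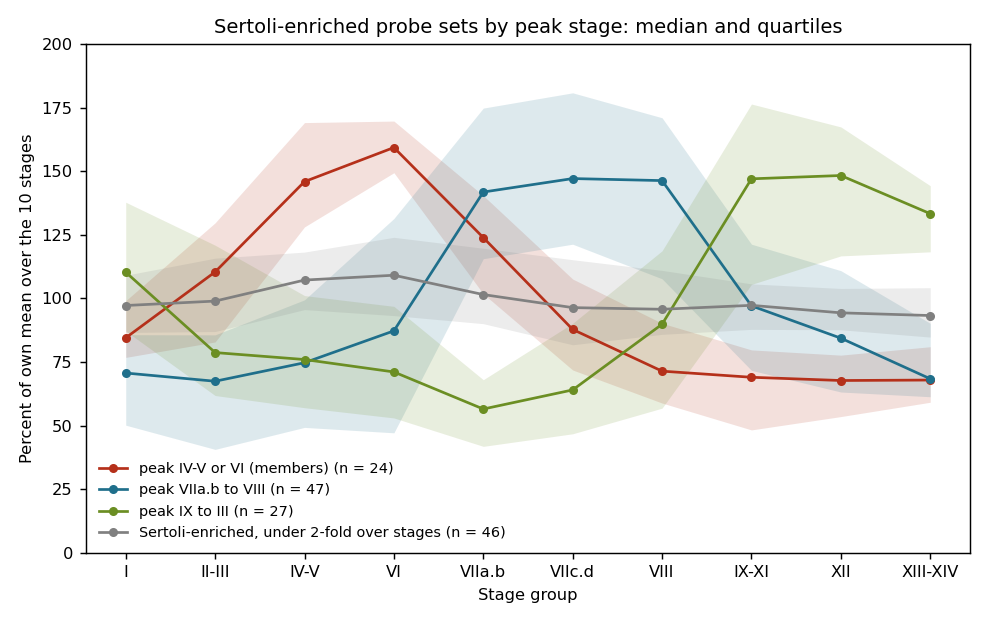
Sertoli-enriched probe sets grouped by peak stage: median (line) and quartiles (band) of the stage mean as percent of each set's own mean over the 10 stage groups. The 24 members are at 159% at VI and at 67.7% at XII; the 47 sets peaking at VIIa.b to VIII, the 27 peaking at IX to III and the 46 that varied under 2-fold are drawn for comparison, and peaks follow from how the sets were chosen.

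Gene lists of Sertoli functions were compared with the members, with both chosen knowing earlier results of these data. Of 32 measured proteases and inhibitors, 5 were Sertoli-enriched and at least 2-fold over the stages, and 3 of these peaked at IV-V or VI (Ctsk and the 2 left out by name, A2m and Cst9l). Of 30 measured genes of junctions and the ectoplasmic specialization, 4 met those limits and 2 were members (Espn and Myo7a). Of 18 measured secreted carriers and glycoproteins, 5 met them and 1 was a member (Mfge8), and of 19 measured androgen response genes, 4 met them and 1 was a member (Espn). Lists of cholesterol synthesis, FSH and cAMP response, retinoid metabolism, lysosome and phagocytosis, and glucose use held 0 members, with 27, 34, 20, 23 and 23 genes measured. Of these genes 1, 3, 1, 2 and 1 were Sertoli-enriched and 0 were also at least 2-fold over the stages. These lists therefore say nothing about the stage of a peak. Of 38 measured growth factors and modulators, 1 met both limits and 0 were members. The lysosome and phagocytosis list did not include Ctsk, Creg1 or Mfge8, so its 0 says only that none of the genes listed was a member.

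Around the limits of the rule, the members were continuous with other probe sets. On the ratio over stages Mfge8 (2.35), Espn (2.16) and Slc11a2 (2.09) were just inside, and Defb24 (1.99), Kyat3 (1.98) and Sin3b (1.88) just outside. On the ratio to the highest germ cell mean Gpc4 (4.36), Snx33 (4.35) and Slc11a2 (4.08) were just inside, and Myh11 (3.99), Tiam1 (3.97) and Atp13a2 (3.75) just outside.

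In isolated Sertoli Cells, whose values also chose the members, the mean was above that of the peak stage in 23 of 24. The exception was Dcx, which read 336, 370, 138 and 144 in the 4 samples, a mean of 247 ± 123 against 254 at VI. The ratio of the Sertoli mean to the peak stage mean had a median of 2.87 and reached 12.7 in Espn, which read 1565, 1833, 1318 and 1496. Aqp8 read 2721, 3648, 2554 and 2433. Replicates 1 and 2 were among the 2 highest Sertoli samples in 20 and 22 of the 24 probe sets, and replicate 4 in 1, which was Slc39a8. Slc39a8 ran the other way, at 350, 334, 715 and 1247. The counts by replicate were not set against those of all probe sets, so no trait of the members is read from them. The sum of Sertoli markers was highest in replicate 2 (22087) but lowest in replicate 1 (17286). Of 16 measured Sertoli markers, 13 were at 100 or above in Sertoli Cells, and Gata1 (88.3), Amh (58.2) and Rhox5 (43.0) were lower. The same samples held signal of 9 Leydig markers summing to 6750 ± 797 (n = 4), against at most 369 as a stage mean in tubules. They also held 9 peritubular myoid markers at 6196 ± 2229 (n = 4), against at most 918, and 7 endothelial markers at 1152 ± 611 (n = 4), against at most 273. By the Sertoli limits of the rule, 6 of 9 myoid, 3 of 7 endothelial and 1 of 9 Leydig markers counted as Sertoli-enriched. Of the 16 Sertoli markers themselves, 5 met these limits, so the limits do not single out Sertoli genes. The part of these cells in any Sertoli value of a member was not tested.

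**Figure D4:**
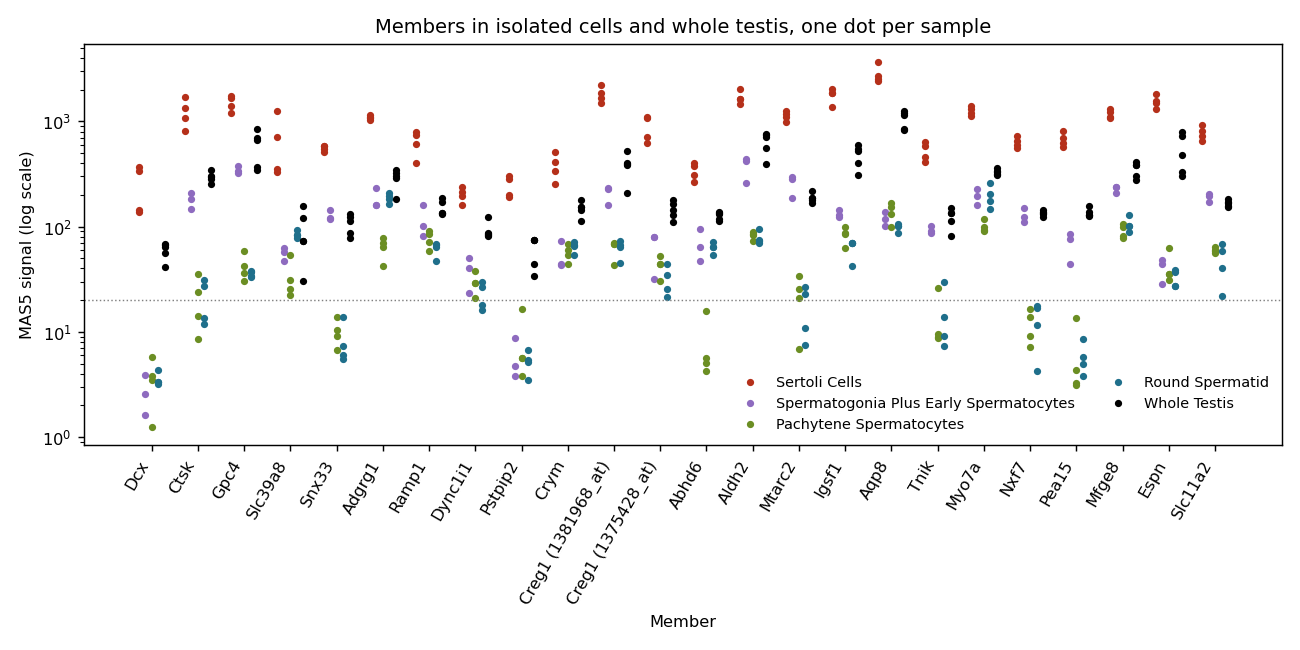
Signal of the 24 members in isolated cells and whole testis, 1 dot per sample (vertical axis, MAS5 signal on a log scale; dotted line, signal of 20). Sertoli Cells are above all 3 germ cell groups in every member, as the rule requires of the means, and no Sertoli sample overlaps a germ cell sample (0 of 24 members), which the rule nearly fixes: it held in 99.7% of the 355 Sertoli-enriched sets and 11.8% of all sets.

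The next comparison set Whole Testis against the mean of the 10 stages. The Whole Testis samples did not enter the choice of the members, but the stage means did, so the comparison is only partly independent of it and no excess over other genes is read from it. Whole testis also holds the interstitial tissue that dissection leaves behind. Espn, Aldh2 and Gpc4 were higher in whole testis, and none of the 24 was lower, at an adjusted p under 0.05 and at least 2-fold. By the same call 2.31% of all 22506 sets in the test were higher and 1.20% lower. At an unadjusted limma p under 0.05, 1 member (Ramp1) was lower. The members' median log2 difference was 0.44, against -0.05 over all sets tested. On the adjusted p alone 17 of 24 passed, beside 32.6% of all sets. All p-values of this and the next comparison are from limma, and adjusted ones use the Benjamini-Hochberg method over all probe sets tested. They set each difference against the spread of samples within groups, and tubule samples are pools of 2 rats.

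Espn read 794, 304, 730, 330 and 478 in the 5 Whole Testis samples, against stage means of 56.3 to 122. Each testis sample was above the highest tubule sample, 226. The log2 difference was 2.64 (SE 0.276), 6.23-fold, with an adjusted p of 1.09e-10. Aldh2 read 767, 394, 712, 554 and 745, and its log2 difference was 1.22 (SE 0.140), 2.34-fold, with an adjusted p of 1.17e-09. Gpc4 read 844, 369, 660, 344 and 699, and its log2 difference was 1.08 (SE 0.126), 2.12-fold, with an adjusted p of 1.86e-09. Both overlapped with their peak stage, and Gpc4 lost the 2-fold mark without Whole Testis replicate 1 (0.93) or replicate 5 (0.998). In all 3 genes replicates 2 and 4 were the lowest of the 5.

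Replicates 2 and 4 were each among the 2 lowest testis samples in 15 of the 24 probe sets, and among the 2 highest in 9 and 5. These counts were not set against those of all probe sets, so no trait of the members is read from them. Replicates 2 and 4 also had the lowest sums of Sertoli markers (Espn is one of these), 5571 and 5896, against 8344 to 9200 in the other 3. Without replicate 2 the log2 difference was 2.81 in Espn, 1.38 in Aldh2 and 1.23 in Gpc4. Besides Espn, Pea15 had all 5 testis samples above its highest stage mean, as 2.69% of all probe sets did. They read 139, 128, 128, 125 and 156 against 124 at VI, with a log2 difference of 0.81 (SE 0.217) and an adjusted p of 0.00324. Ramp1 was the only member below 0, at -0.28 (SE 0.117), with an adjusted p of 0.0566 that did not pass.

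A mean over stages on the log scale lies below the linear mean for a gene that varies over the cycle, which raises these differences for the members. On the linear scale, the ratio of the testis mean to the mean of the stage means had a median of 1.25, from 0.742 in Ramp1 to 6.38 in Espn, with 2.24 in Aldh2 and 1.86 in Gpc4. Dcx had a log2 difference of 0.94 but a linear ratio of 0.923, so its direction depended on the scale. Beside these differences, 6 of 9 Leydig markers tested, 3 of 16 Sertoli markers (Espn, Inhbb and Vim), 2 of 8 peritubular myoid, 2 of 6 macrophage and blood and 1 of 5 endothelial markers were higher in whole testis. The Leydig sum was 2602 ± 248 (n = 5) in whole testis and the Sertoli sum 7472 ± 1629 (n = 5). Their part in the members' differences was not tested.

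A further comparison set early germ cells against the mean of the pachytene spermatocytes and round spermatids. The rule kept each germ cell mean low against Sertoli Cells but did not use differences between germ cells. The same germ cell means thus helped to choose the members, and the limit on them narrows their range. The comparison is only partly independent of that choice, and no excess over other genes is read from it. Of the 24 members 12 were higher in early germ cells and none was lower, in a background where 31.5% of all 20257 sets in the test were higher and 18.3% lower. At an unadjusted limma p under 0.05, 0 members were lower as well. The members' median log2 difference was 1.02, against 0.21 over all sets. On the adjusted p alone 17 of 24 passed, as did 72.0% of all sets tested, so this count was at the background.

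Mtarc2 read 285, 298 and 186 in the 3 early germ cell samples, 25.5, 21.2, 6.85 and 34.3 in Pachytene Spermatocytes and 7.49, 22.9, 26.5 and 10.9 in Round Spermatid. All early samples were far above all later ones, with a log2 difference of 3.50 (SE 0.305) and an adjusted p of 5.71e-09. Snx33 differed by 3.25 (adjusted p 2.39e-11), Gpc4 by 3.02 (2.28e-12), Nxf7 by 3.00 (1.89e-09) and Ctsk by 2.93 (5.41e-08). Pea15 (2.74), Tnik (2.46), Aldh2 (2.12), Slc11a2 (1.80), the brighter Creg1 set (1.67), Abhd6 (1.32) and Mfge8 (1.20) were also higher. In Gpc4, for example, the signal was 35.5 ± 2.41 (n = 4) in Round Spermatid against 344 ± 25.5 (n = 3) in early germ cells. In Abhd6 only pachytene spermatocytes were low, at 7.67 ± 5.41 (n = 4). Its round spermatids (63.3 ± 7.19, n = 4) overlapped with early germ cells (69.1 ± 24.2, n = 3).

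The other 12 probe sets did not reach the call. Among them were Dcx and Pstpip2, whose 3 germ cell means were all below 20, with log2 differences of -0.15 (SE 0.294) and -0.07 (SE 0.267). Aqp8 differed by 0.04 (95% interval -0.28 to 0.35), with means of 120 ± 18.4 (n = 3) in early germ cells, 138 ± 29.5 (n = 4) in pachytene spermatocytes and 99.0 ± 8.23 (n = 4) in round spermatids. Espn (0.12), Slc39a8 (0.08) and Crym (-0.18) were also near 0. Adgrg1 was about as high in Round Spermatid (187 ± 19.1, n = 4) as in early germ cells (184 ± 42.9, n = 3), and likewise Myo7a (197 ± 48.99, n = 4, and 194 ± 33.8, n = 3). Quantile normalization moved the median of all probe sets from 0.21 to -0.09 and that of the members from 1.02 to 0.65, and left 10 members called, without Abhd6 and Mfge8.

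Beside this comparison, 13 of 16 Sertoli markers tested, 8 of 9 Leydig markers and 7 of 8 macrophage and blood markers were higher in early germ cells, and 1 macrophage marker (Aif1) was lower. Of myoid and endothelial markers 3 of 9 and 2 of 7 were higher. The sum of Sertoli markers was 8129 ± 314 (n = 3) in early germ cells, 1093 ± 125 (n = 4) in pachytene spermatocytes and 842 ± 83.8 (n = 4) in round spermatids. The sum of Leydig markers was 8721 ± 1793 (n = 3), 360 ± 102 (n = 4) and 353 ± 45.7 (n = 4). Both sums were higher in early germ cells, where 12 of the 24 members were called higher and others, such as Aqp8 and Espn, were near 0. The part of these sums in the members' differences was not tested. Array measures also varied between these groups. The median signal of an array was 49.6 ± 7.61 (n = 3) in early germ cells, against 37.3 ± 2.44 (n = 4) in pachytene spermatocytes and 36.3 ± 2.25 (n = 4) in round spermatids. The ratio of 3′ to 5′ actin probes was 2.35 ± 1.12, 2.23 ± 0.231 and 1.90 ± 0.0962 in the same order, and that of GAPDH probes 1.20 ± 0.316, 1.22 ± 0.193 and 2.13 ± 0.307. The part of RNA quality in the members' differences was not tested. Age was also confounded with cell group, since only the early germ cells came from rats of 18 to 20 days, and the 2 cannot be told apart.

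**Figure D5:**
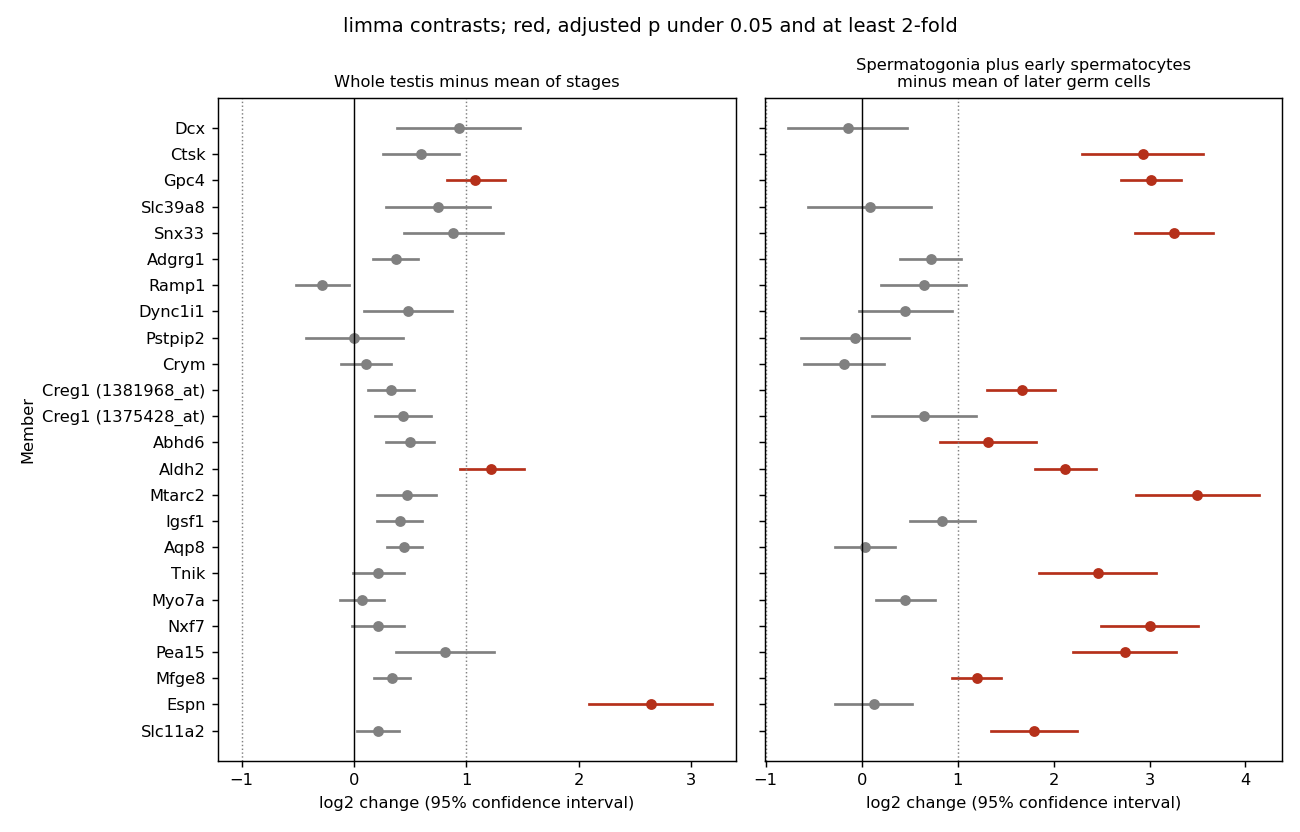
limma log2 differences (points) with 95% confidence intervals for the 24 members, Whole Testis minus the mean of the stages (left) and early germ cells minus the mean of later germ cells (right). Red marks an adjusted p under 0.05 and at least 2-fold: 3 members on the left, led by Espn at 2.64, and 12 on the right, led by Mtarc2 at 3.50.

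The median signal of an array ran from 30.9 to 58.2 over the 69 arrays. The ratio of the 3′ to the 5′ actin control probes was highest among tubules in some samples of VIIc.d and IX-XI (up to 2.86 and 2.72, against group means of 1.69 to 2.21), and without replicates 2 and 3 of both groups the rule returned the same 24 probe sets. The ratio of highest to lowest stage mean still changed in some members without those samples. In the dimmer Creg1 set it went from 3.016 to 2.385, and in Dync1i1 from 3.573 to 4.536.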

How the data were processed

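Signal intensity per probe set and sample was computed by the authors with MAS5, per the submitters' processing notes, and deposited on a linear scale; no version, scaling target or filter was given in the sources used here. Of 31099 probe sets, 57 controls were left out. Exactly 1 symbol was paired with 20832 sets by the platform annotation, several with 436, and 9780 were unlisted. Symbols of 20764 were updated through RefSeq's GRCr8 gene table. Precision is limited by having 3 to 5 arrays in a group.

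Groups came from the sample titles. Members and lists were chosen with earlier results of these data known. Values in every sample are given for the 8 members with the largest stage ratio and the 4 with the highest peak. Differences were tested two-sided with limma 3.58.1 (R 4.3.3, package data.table in version 1.17.8) on log2(signal + 5.12), the 10th percentile of all values. Probe sets above 43.7, the median of all values, in at least 3 samples were tested, and all 24 member sets passed. Calls needed Benjamini-Hochberg adjusted p under 0.05 and 2-fold. Folds are on that log2 scale, which makes those of low signals smaller. No source says whether samples of one group are separate animals beyond the pools described. Other settings changed the constant, the filter, the normalization, the floor, the folds, the replicates and the block. Scripts (Python 3.11.15, numpy 2.4.6, pandas 2.3.3, matplotlib 3.10.9) were checked on simulated data.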

Additional observations from a re-analysis of the deposited data

Results flagged for a closer look

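Dixon's test was applied to the peak stage, the lowest stage, Sertoli Cells and Whole Testis of each member. It marked 3 of 96 groups, where chance marks about 1 in 20. Adgrg1 read 67.8 in replicate 3 of IX-XI, with the other 4 samples between 94.3 and 99.9. Dync1i1 read 124 in replicate 2 of Whole Testis, with the others between 81.4 and 87.5. Aqp8 read 428 in replicate 1 of VIII, with the others between 477 and 495.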

How the results depend on the processing

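The count of members was 24 with a floor of 10 or 50 and with group medians (which exchanged 3 of them), and 24 without the samples of high actin ratio, an alternative chosen after seeing the data. It was 44 at 3-fold over the germ cells, 11 at 6-fold and 37 after quantile normalization. Without 1 replicate number at a time it ran from 21 to 30, and 17 sets were in every such count; Aldh2, Crym, Espn, Mtarc2, Pstpip2, Slc11a2 and Snx33 were lost at least once. Of whole testis against tubules, 789 probe sets were called, 1249 with a constant of 1 and 207 with 32, and 767 to 994 without 1 sample number. Gpc4 missed the 2-fold mark with a constant of 32 (0.99) and without testis replicate 1 (0.93) or 5; Dcx was called with a constant of 1, without testis replicate 5 and without tubule replicate 3, and Slc39a8 without testis replicate 1. Of early against later germ cells 10086 were called, and 9581 to 10098 without 1 sample; Abhd6 missed the mark with a constant of 32 (0.70) and after quantile normalization (0.85), as did Mfge8 after the latter (0.96). No direction of a called member reversed under these alternatives. The labels do not say what a shared replicate number marks, and deviations of same-numbered tubule samples correlated by 0.0459 on average (-0.0704 to 0.176; different numbers, -0.0114), below the 0.1 asked of every pair, so no pairing was used. That 37 of 49 correlated best with their own number is a hint from the data, not the design. With the replicate block 797 and 10113 probe sets were called, with 3 and 12 members higher as before. The linear ratio of testis to tubules was also chosen after seeing the data.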
